A study of Homo sapiens with 6 samples.

Results

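Integrins are the receptors by which cells grip the matrix around them, and focal adhesions are the protein assemblies that tie those receptors to actin. The list comprised 36 genes for integrin subunits, the proteins that link them to actin, the kinases and docking proteins that signal there, and 2 caveolins. Every probe set carrying one of these symbols was examined in KHOS and U-2OS, which are human osteosarcoma cell lines. Those whose brightest array of the 6 exceeded a log2 level of 6.64, a signal of 100, were kept. Of the 36 genes, 24 had at least 1 kept probe set, and 43 of their 111 probe sets were kept, compared with 16397 of 54675 probe sets in the whole table. Each line was sampled after transfection with CDK11 siRNA at 40 nM, after transfection with nonspecific siRNA at 40 nM, and without transfection, and RNA was taken at 48 h. Each of these 6 conditions was a single array of RNA pooled from 3 flasks, so that no condition had a replicate within its line. KHOS and U-2OS are 1 line each, and nothing measured on them separates a property of the line from a property of the culture. In bulk RNA, fewer expressing cells and less RNA per cell cannot be told apart.

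Each integrin is a pair of an alpha and a beta subunit, and the pair determines which matrix protein is bound. Talin and kindlin bind the tail of the beta subunit and activate the receptor, while vinculin, alpha-actinin, tensin, zyxin and the complex of ILK, PINCH and parvin couple it to actin. Focal adhesion kinase and paxillin relay the signal, and caveolins coat the small membrane pits through which many surface proteins, integrins included, are taken up. In bone, integrin adhesion governs how osteoblasts attach to collagen, fibronectin and osteopontin.

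The arrays were alike in overall level, with medians of 2.92 to 2.98 and with 24.8% to 25.9% of probe sets above the limit. Arrays of the same line correlated at 0.974 or more over the kept probe sets, and arrays of different lines at 0.714 or less. The brightest probe set of CDK11A and CDK11B, which the platform assigns to both genes, was left at 20.6% of its signal with nonspecific siRNA in KHOS and at 16.0% in U-2OS. Of 9 osteoblast lineage markers, 3 had a probe set above the limit (RUNX2, COL1A1 and SPARC), and the others that were measured reached no more than 6.62. Of 7 epithelial markers 3 were above the limit, KRT18, KRT8 and EPCAM. These markers were not alike in the lines. EPCAM was below the limit on all U-2OS arrays, at 5.15 to 5.89. RUNX2 exceeded it in U-2OS in untransfected cells alone, at 7.03. The others were above it on every array, with KRT8 differing by -4.12 (KHOS minus U-2OS). No blood or endothelial marker was, with highest levels of 3.31 and 3.16.

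The genes that stayed below the limit on every array were 11 of the 36, with highest levels between 3.13 and 6.35. They included the alpha subunits ITGA7, ITGA9, ITGA10 and ITGA11, the beta subunits ITGB3 and ITGB4, and the adaptors and kinases TLN1, LIMS1, SRC, BCAR1 and NEDD9. A low level on these arrays does not show that a transcript was missing, since probe sets differ in how well they hybridize. For the talin gene TLN1 the highest of 3 probe sets reached 6.35, and for the gene of the kinase SRC the highest of 7 reached 4.39. FLNA had no probe set under its own symbol alone and was not analysed here. For LIMS1 this covers the probe sets under its own symbol alone. The 2 that it shares with LIMS3 or LIMS4 were left out because their signal cannot be assigned to LIMS1, and their levels ran over the range 9.28 to 11.54 in KHOS, against 10.37 to 12.30 in U-2OS. Just inside the limit lay a probe set of ITGA1 with a highest level of 6.68, and just outside it one of ITGB5 with 6.63. By role, the kept genes were 7 of 11 alpha subunits, 3 of 5 beta subunits, 10 of 13 linking proteins, 2 of 5 signalling proteins and both caveolins.

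**Figure D1:**
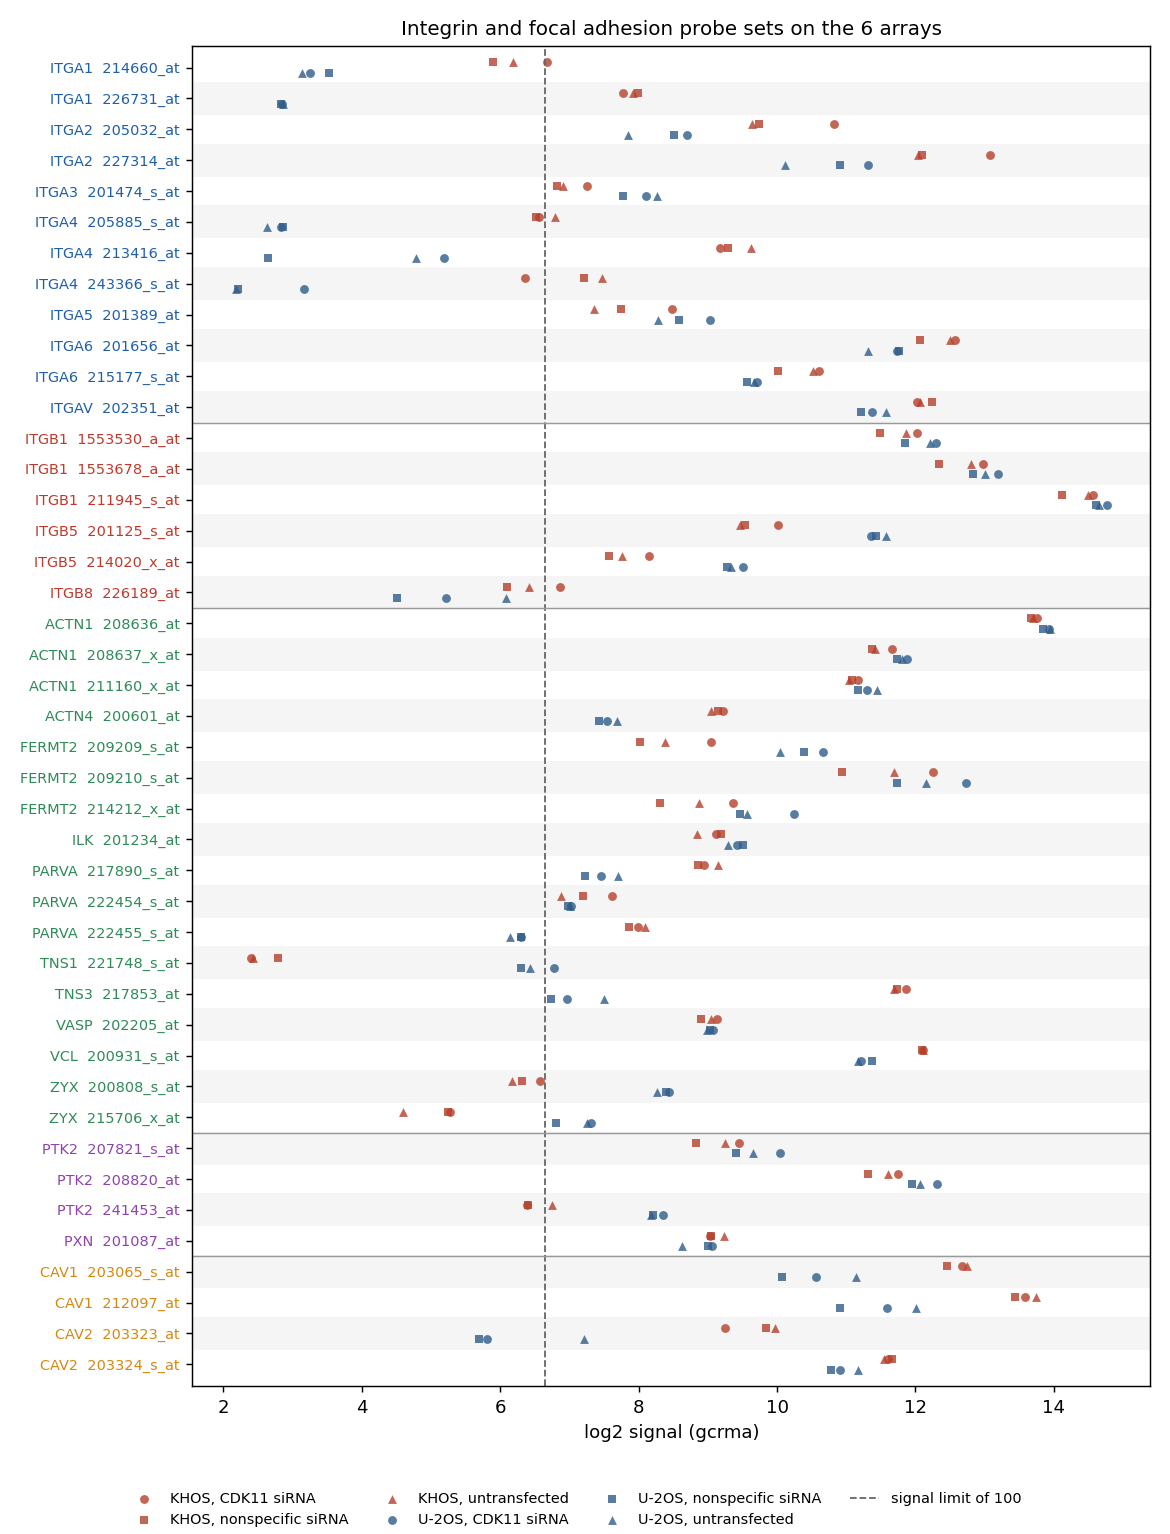
Log2 gcrma signal (x axis) of the 43 kept probe sets (rows, grouped by role) on the 6 arrays, with KHOS in red above U-2OS in blue, and the marker shape giving the transfection. The KHOS and U-2OS points are far apart for ITGA1, ITGA4, TNS1 and TNS3 and overlap for PXN and VASP, and the dashed line is the signal limit of 100.

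The first comparison asked in which adhesion genes the 2 lines differed. On kept probe sets, KHOS carried the higher levels of the collagen receptor subunits ITGA1 and ITGA2, of ITGA4, of both caveolins and of TNS3. U-2OS carried those of ITGB5, ZYX and FERMT2. TNS1 also measured higher in U-2OS, but on 1 kept probe set, and by only 1.03-fold with levels below the limit set to it. With limma, and the 3 transfections as paired repeats, 20 of the 43 probe sets were higher in KHOS than in U-2OS, against 39.6% of all probe sets, and 16 were lower, against 32.6% of all. Beyond 1 log2 unit as well, 15 were higher, where the background was 22.5%, and 8 were lower, where it was 16.0%. These counts, and the background shares, use the measured levels as they stand. They include probe sets of ITGA1, ITGA4, ITGB8, PARVA, TNS1 and ZYX whose levels were below the limit on every array of the lower line. With these levels set to the limit, their bounds ran from 1.01-fold (ITGA1 on 214660_at) to 6.60-fold (ITGA4 on 213416_at). The 3 KHOS arrays all lay above the 3 U-2OS arrays for 20 probe sets and all below for 15, and the lines overlapped for 8. Overlap was counted for the members alone, so these counts have no background to be read against. Counted as 1 probe set per gene, the brightest, 8 of 24 genes were higher beyond 1 log2 unit, against 20.2% of all genes, and 4 were lower, against 16.4%. The counts per gene, too, use the measured levels. The share of genes that differed was thus high throughout the table, and these counts are to be read against it. The p-values measure only how steady the difference between the lines was over the transfections, on 2 residual degrees of freedom, and not the spread between independent cultures. The median difference of KHOS minus U-2OS was 0.21 over the members and 0.10 over all probe sets, and that of all probe sets was -0.05 after the arrays were centred on their medians. On centred arrays limma called 34.5% of all probe sets higher in KHOS and 38.0% lower, with 20 members higher and 20 lower, and on quantile normalized arrays 35.1% and 36.9%, with 20 and 17 members, so the balance of all calls turned with the scaling. Each of the 13 genes with several kept probe sets had the same sign on all of them.

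**Figure D2:**
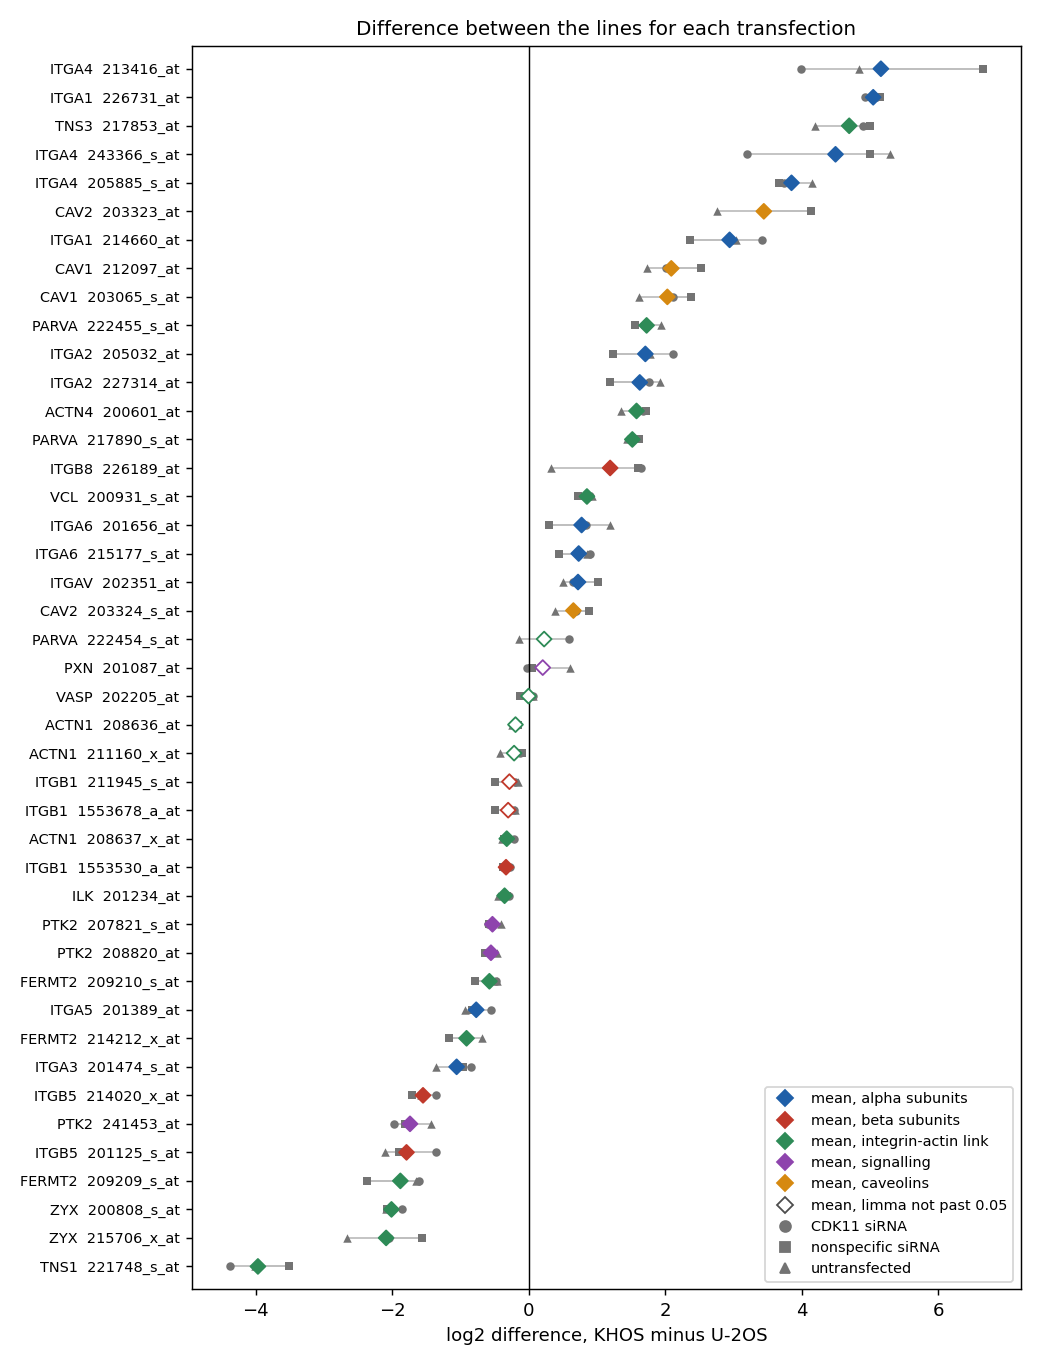
Log2 difference of KHOS minus U-2OS (x axis) for the 43 probe sets (rows, sorted), with grey markers for the 3 transfections and a diamond, coloured by role, for their mean. Open diamonds mark the 7 probe sets that did not pass limma at 0.05, all with means between -0.30 and 0.23, while the means run from -3.97 for TNS1 to 5.16 for ITGA4.

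Over the 12 kept probe sets of the alpha subunits the median measured difference was 1.67. It rests in part on ITGA1 and ITGA4, whose U-2OS levels were below the limit on every kept probe set. It is no size for the subunits as a class, since ITGA3 and ITGA5 were lower in KHOS. ITGA1 pairs with ITGB1 as a receptor for collagen. On its brighter probe set, 226731_at, ITGA1 had log2 levels of 7.78, 7.98 and 7.92 in KHOS (CDK11 siRNA, nonspecific siRNA and untransfected cells, in which sequence the levels of each line are given throughout) and 2.85, 2.84 and 2.86 in U-2OS. All 3 U-2OS levels were below the limit, and with these set to the limit ITGA1 was at least 2.38-fold higher in KHOS. The measured difference was 5.05 ± 0.10 (SE, adjusted p = 1.42e-05 in limma). The second probe set of ITGA1 differed by 2.94 but barely reached the limit in KHOS, so that its bound was only 1.01-fold.

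ITGA2 is also a collagen-binding partner of ITGB1. Its brighter probe set, 227314_at, read 13.08, 12.10 and 12.03 in KHOS, against 11.31, 10.91 and 10.11 in U-2OS. Every KHOS array was above every U-2OS array, and the difference of 1.63 ± 0.17 (SE, adjusted p = 0.00102) corresponded to a 3.09-fold higher signal. The other probe set, 205032_at, gave 10.82, 9.74 and 9.64 in KHOS, against 8.70, 8.51 and 7.85 in U-2OS, a 3.27-fold difference in the same direction. The CDK11 siRNA array was the highest of its line on both probe sets in both lines.

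ITGA4 forms the receptor for VCAM1 and fibronectin with ITGB1 and is best known from leukocytes. On probe set 213416_at, ITGA4 read 9.17, 9.30 and 9.63 in KHOS, against 5.19, 2.64 and 4.78 in U-2OS. The U-2OS levels lay below the limit and were spread over more than 2 log2 units, whereas the KHOS levels were close together. The difference was 5.16 ± 0.52 (SE, adjusted p = 0.00087), and KHOS was at least 6.60-fold higher when the U-2OS levels were set to the limit. Probe sets 243366_s_at and 205885_s_at differed by 4.50 and 3.85 with the same sign, with bounds of 1.38-fold and 1.03-fold.

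The remaining alpha subunits differed by less. ITGA6, a laminin receptor subunit, was higher in KHOS by 0.78 on 201656_at (adjusted p = 0.0177) and by 0.73 on 215177_s_at (adjusted p = 0.00614). On 201656_at the call was lost when the CDK11 siRNA arrays were left out (adjusted p = 0.0744) and when all probe sets of the table were tested (adjusted p = 0.109). ITGAV, the partner of several beta subunits in receptors for vitronectin and other RGD-bearing proteins, was higher by 0.72 ± 0.14 (SE, adjusted p = 0.00715). ITGA3, a laminin receptor subunit, was lower in KHOS by 1.06 log2 units, a 2.08-fold higher signal in U-2OS (adjusted p = 0.00199). ITGA5, the subunit of the fibronectin receptor, read 8.48, 7.75 and 7.36 in KHOS, against 9.02, 8.58 and 8.28 in U-2OS. The lines overlapped in these levels, yet at each transfection KHOS was the lower, by 0.77 ± 0.12 on average (SE, adjusted p = 0.00361). The ITGA5 call was lost without the replicate block (adjusted p = 0.0733).

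The beta subunits divided by gene. ITGB5, a partner of ITGAV, read 10.01, 9.53 and 9.46 on probe set 201125_s_at in KHOS and 11.36, 11.44 and 11.58 in U-2OS. Its second probe set, 214020_x_at, gave 8.15, 7.57 and 7.76 in KHOS, against 9.51, 9.28 and 9.34 in U-2OS. The lines did not overlap on either, and KHOS was lower by 1.79 ± 0.17 and 1.55 ± 0.11 (SE, adjusted p = 0.000785 and 0.000348). U-2OS thus had a 3.46-fold and a 2.92-fold higher signal. On the ITGB5 probe set just outside the limit, KHOS was also lower at each transfection. The remaining ITGB5 probe set, likewise below the limit on every array, went the other way. It read 5.81, 5.38 and 6.08 in KHOS, against 3.94, 3.55 and 3.91 in U-2OS. The direction thus holds for the kept probe sets and not for every ITGB5 probe set.

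ITGB8, another ITGAV partner, which is known for activating latent TGF-beta, read 6.87, 6.10 and 6.41 in KHOS, against 5.22, 4.50 and 6.08 in U-2OS. Only the KHOS array with CDK11 siRNA was above the limit, and the lines came close in untransfected cells. The difference of 1.19 ± 0.29 (SE, adjusted p = 0.0174) was no longer called without the CDK11 siRNA arrays (adjusted p = 0.079), without the nonspecific siRNA arrays (adjusted p = 0.0745), or when all probe sets of the table were tested (adjusted p = 0.128).

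ITGB1 is the common partner of most of the alpha subunits above. Its probe set 1553530_a_at read 12.03, 11.48 and 11.86 in KHOS, against 12.30, 11.85 and 12.21 in U-2OS. The difference was small, with KHOS lower by 0.33 ± 0.10 (SE, adjusted p = 0.0285), and it was lost on leaving out any one transfection (adjusted p = 0.077 to 0.138). On probe sets 1553678_a_at and 211945_s_at ITGB1 differed by -0.30 and -0.28, and neither passed (adjusted p = 0.0618 and 0.0803).

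Of the proteins that link integrins to actin, the tensins TNS3 and TNS1, which bind beta subunit tails and actin filaments, differed in opposite directions. TNS3 read 11.87, 11.73 and 11.69 in KHOS, against 6.96, 6.73 and 7.50 in U-2OS. All 6 levels were above the limit, and the difference of 4.70 ± 0.19 (SE, adjusted p = 6.97e-05) corresponded to a 25.9-fold higher signal in KHOS. TNS1 read 2.39, 2.78 and 2.42 in KHOS, against 6.77, 6.29 and 6.44 in U-2OS. The TNS1 difference was -3.97 ± 0.19 (SE, adjusted p = 0.000106), but U-2OS exceeded the limit on 1 array alone, and the bound was a 1.03-fold higher signal in U-2OS. The other probe sets of TNS1 reached no more than 3.55 on any array of either line and showed no difference of that size.

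ZYX encodes zyxin, a LIM protein recruited to adhesions under tension. On probe set 200808_s_at, ZYX read 6.58, 6.31 and 6.17 in KHOS, against 8.43, 8.39 and 8.27 in U-2OS. The KHOS levels were all below the limit, and zyxin was at least 3.30-fold higher in U-2OS, with a measured difference of -2.01 ± 0.11 (SE, adjusted p = 0.00014). Probe set 215706_x_at of ZYX, at 5.27, 5.25 and 4.59 in KHOS, against 7.31, 6.81 and 7.26 in U-2OS, differed by -2.09 with a bound of 1.40-fold.

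FERMT2 encodes kindlin-2, the integrin activator of most adherent cells. On probe set 209209_s_at it read 9.05, 8.02 and 8.38 in KHOS, against 10.66, 10.39 and 10.04 in U-2OS. On 214212_x_at it read 9.36, 8.31 and 8.88 in KHOS, against 10.24, 9.47 and 9.56 in U-2OS, and on 209210_s_at it read 12.25, 10.94 and 11.69 in KHOS, against 12.73, 11.74 and 12.15 in U-2OS. KHOS was lower at each transfection on all 3, by 1.88, 0.91 and 0.58 on average (adjusted p = 0.000808, 0.00273 and 0.009), so the direction was shared and the size was not. The call on 209210_s_at was lost without the nonspecific siRNA arrays (adjusted p = 0.0524) and without the replicate block (adjusted p = 0.225).

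PARVA encodes alpha-parvin, an actin-binding partner of ILK. On 217890_s_at it read 8.94, 8.85 and 9.15 in KHOS, against 7.45, 7.23 and 7.71 in U-2OS, and on 222455_s_at it read 7.99, 7.86 and 8.09 in KHOS, against 6.30, 6.30 and 6.14 in U-2OS. KHOS was higher on both, by 1.52 ± 0.10 and 1.73 ± 0.12 (SE, adjusted p = 0.00025 and 0.000285), with a bound of 2.52-fold for the second, whose U-2OS levels were below the limit. The third probe set, 222454_s_at, read 7.62, 7.20 and 6.87 in KHOS, against 7.03, 6.98 and 7.01 in U-2OS, and the lines overlapped (difference 0.23, adjusted p = 0.269).

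VCL, the gene of vinculin, read 12.11, 12.10 and 12.10 in KHOS, against 11.21, 11.37 and 11.17 in U-2OS. The KHOS levels were almost identical, and the difference was 0.85 ± 0.10 (SE, adjusted p = 0.00152). ACTN4, one of the actin-crosslinking alpha-actinins, was 2.99-fold higher in KHOS (difference 1.58, adjusted p = 0.000363). The differences of ACTN1, the other alpha-actinin, ran between -0.32 and -0.19 on 3 probe sets, of which 1 passed (208637_x_at, adjusted p = 0.0371). ILK, the integrin-linked pseudokinase, read 9.12, 9.19 and 8.85 in KHOS, against 9.42, 9.51 and 9.29 in U-2OS, lower in KHOS by 0.35 ± 0.10 (SE, adjusted p = 0.026). The calls of ACTN1 and ILK were each lost on leaving out any one transfection (adjusted p = 0.07 to 0.158 for ACTN1 and 0.0724 to 0.0993 for ILK). VASP, which promotes actin filament elongation, differed by -0.0023 with an SE of 0.10 (adjusted p = 0.986).

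In the signalling group, PTK2, the gene of focal adhesion kinase, was lower in KHOS on all 3 of its probe sets. PTK2 read 6.38, 6.40 and 6.75 in KHOS, against 8.36, 8.20 and 8.18 in U-2OS on 241453_at, a measured difference of -1.74 ± 0.14 (SE, adjusted p = 0.000438). KHOS exceeded the limit in untransfected cells alone, and with the other KHOS levels set to it the signal was 2.97-fold higher in U-2OS. On 207821_s_at it read 9.45, 8.82 and 9.24 in KHOS, against 10.05, 9.40 and 9.65 in U-2OS, and on 208820_at 11.75, 11.31 and 11.60 in KHOS, against 12.31, 11.95 and 12.06 in U-2OS. These 2 gave smaller differences, of -0.53 and -0.55 (adjusted p = 0.00731 and 0.00587), and the call on 207821_s_at was lost without the replicate block (adjusted p = 0.0772). PXN, the adaptor paxillin, had levels between 8.63 and 9.23 on the 6 arrays and differed by 0.21 ± 0.16 (SE, adjusted p = 0.292).

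Both caveolins were higher in KHOS. CAV1, the main coat protein of caveolae, read 13.59, 13.44 and 13.74 in KHOS, against 11.58, 10.92 and 12 in U-2OS on 212097_at. On 203065_s_at it read 12.67, 12.46 and 12.75 in KHOS, against 10.57, 10.08 and 11.14 in U-2OS. The lines did not overlap on either, and the 4.26-fold and 4.09-fold higher signals in KHOS were close to each other (differences 2.09 ± 0.18 and 2.03 ± 0.17, SE, adjusted p = 0.000502 and 0.00052).

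CAV2, which assembles with caveolin-1, read 11.60, 11.67 and 11.55 in KHOS, against 10.91, 10.77 and 11.16 in U-2OS on 203324_s_at. On 203323_at it read 9.25, 9.83 and 9.97 in KHOS, against 5.81, 5.70 and 7.21 in U-2OS. The probe sets of CAV2 agreed in direction but not in size, with differences of 0.66 ± 0.13 and 3.45 ± 0.27 (SE, adjusted p = 0.00913 and 0.00042). On the second, U-2OS exceeded the limit in untransfected cells alone, and with its other levels set to the limit the signal was 7.23-fold higher in KHOS.

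Other genes of the pathway, from lists chosen with earlier results of these data known, are given by their brightest probe set. Of 10 further integrin subunits, mostly those of blood cells, platelets and epithelia, ITGAE alone was above the limit, and the others reached at most 4.81. Among 27 measured adhesion proteins, 7 were higher in KHOS beyond 1 log2 unit and 6 were lower, where the background of this and the next lists was 20.2% higher and 16.4% lower of all genes. The hyaluronan receptor gene LAYN was the lowest, at 2.83, 2.82 and 3.12 in KHOS, against 9.74, 9.75 and 10.07 in U-2OS, and with the KHOS levels set to the limit LAYN was at least 9.25-fold higher in U-2OS. PDLIM1, an alpha-actinin-binding LIM protein, read 11.51, 11.27 and 11.38 in KHOS, against 6.68, 5.66 and 7.97 in U-2OS, and with the U-2OS level under nonspecific siRNA set to the limit it was 19.6-fold higher in KHOS. Among 21 measured integrin ligands, 6 were higher and 8 were lower. The laminin chain gene LAMA1 was below the limit on all KHOS arrays and at least 20.1-fold higher in U-2OS, and fibrillin-1 (FBN1) was below it on all U-2OS arrays and at least 2.91-fold higher in KHOS. CCN3 was below the limit on all KHOS arrays and at least 6.06-fold higher in U-2OS. Tenascin-C (TNC) was above the limit on every array and differed by -3.83. Of 25 signalling genes 5 were higher and 3 were lower, and of 21 actin and SRF target genes 3 were higher and 4 were lower. Of the lower ones in this last list, ANKRD1 was below the limit on all KHOS arrays and at least 144-fold higher in U-2OS. TAGLN, also below it on all KHOS arrays, was at least 2.68-fold higher in U-2OS. In the caveolar list, CAVIN3, whose product binds CAV1, was below the limit on all U-2OS arrays and at least 10.04-fold higher in KHOS. CAVIN1, the cavin needed for caveolae to form, was lower in KHOS by 1.57 log2 units.

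The next comparison asked what the members did when CDK11 was knocked down. With limma over both lines, CDK11 siRNA against nonspecific siRNA, none of the 43 probe sets passed at an adjusted p of 0.05, as was true of all probe sets (0.0%). At an unadjusted p under 0.05 there were 11 members and 2337 probe sets in all, and the smallest adjusted p of a member was 0.146, for FERMT2. The signs, though, leaned one way. With CDK11 siRNA, 28 of 43 probe sets were higher in both lines, against 34.6% of all probe sets, and 1, of ILK, was lower in both, against 30.0%. Beyond 0.25 in both lines, 11 were higher, against 9.66%, and 0 were lower, against 8.45%. Per gene, 14 of 24 were higher in both lines, against 33.2% of genes, and 1 was lower, against 31.0%. Each of these counts of higher members includes ITGB8, which was kept only through its KHOS array with CDK11 siRNA. Its place in them is therefore no support for the lean. In KHOS the members had a median difference of 0.23, where all probe sets had 0.0096, and in U-2OS they had 0.16, where all probe sets had 0.014.

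The same arrays must be read beside the untransfected cells, since the nonspecific siRNA arrays enter both sets of differences. For nonspecific siRNA against untransfected cells, limma called none of the members or of all probe sets (0.0%), where 7 members and 1468 probe sets had an unadjusted p under 0.05. There, 18 of 43 were lower in both lines, against 30.4% of all probe sets, and 5 were higher, against 27.2%. The medians of these differences were -0.18 (KHOS) and -0.09 (U-2OS). For CDK11 siRNA against untransfected cells, limma again called none (0.0%), with 7 members and 3162 probe sets at an unadjusted p under 0.05. Here 22 of 43 were higher in both lines, against 32.5%, and 6 were lower in both, also against 32.5%. The higher ones include ITGA1 on 214660_at, which was kept only through its KHOS array with CDK11 siRNA. The medians were 0.15 (KHOS) and 0.12 (U-2OS).

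Within each line, a difference was called when it lay beyond 3 SD of all kept probe sets, which carries no p-value. In CDK11 siRNA against nonspecific siRNA, 0 members lay beyond it in KHOS, against 1.38% of all probe sets, and 1 in U-2OS, against 1.87%, a probe set of ITGA4. In nonspecific siRNA against untransfected cells, 0 lay beyond it in KHOS, against 1.51%, and 3 in U-2OS, against 1.59%. These 3 belonged to ITGA4, ITGB8 and CAV2. In CDK11 siRNA against untransfected cells, 0 lay beyond it in KHOS, against 1.59%, and 1 in U-2OS, of CAV2, against 1.62%. Whether the lines differed in their response could not be tested, because 1 array per condition leaves no residual degrees of freedom. No member differed by more than 1 log2 unit in opposite directions in the 2 lines.

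**Figure D3:**
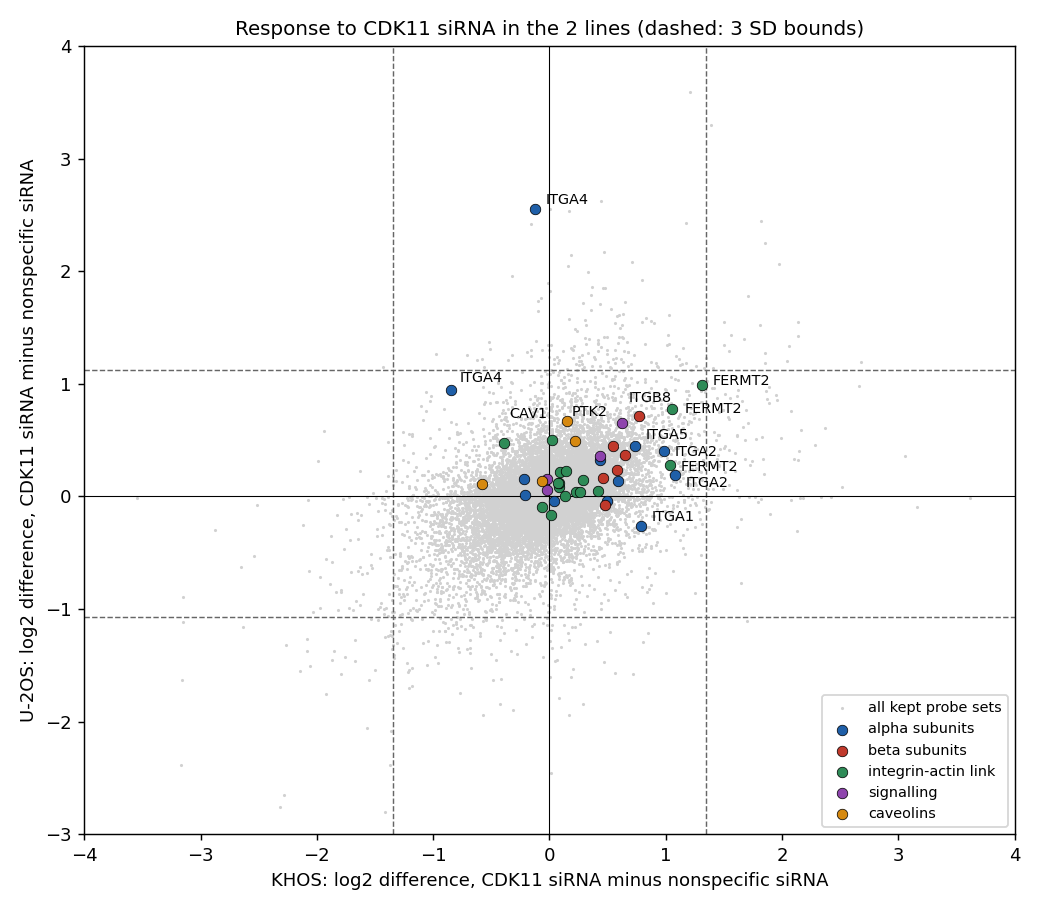
Log2 difference of CDK11 siRNA minus nonspecific siRNA in KHOS (x axis) and in U-2OS (y axis) for the 43 member probe sets (coloured by role) and for all kept probe sets (grey), with dashed lines at 3 SD. Of the members, 28 lie in the upper right quadrant, 1 in the lower left, and a single ITGA4 probe set beyond 3 SD in U-2OS.

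FERMT2 had the greatest mean difference among the member probe sets that were higher in both lines. Its CDK11 siRNA arrays exceeded the nonspecific siRNA arrays by 1.31 in KHOS and 0.99 in U-2OS on 209210_s_at, by 1.05 and 0.77 on 214212_x_at, and by 1.03 and 0.28 on 209209_s_at. The limma estimate for 209210_s_at was 1.15 ± 0.14 (SE, adjusted p = 0.146). When the variance prior of limma was allowed to follow the level of a probe set, 3 members were higher, against 0.427% of all probe sets. They were FERMT2 on 209210_s_at and 214212_x_at (adjusted p = 0.00883 and 0.0373) and ITGB1 on 1553530_a_at (adjusted p = 0.0473). Compared with untransfected cells, FERMT2 on 209210_s_at was higher with CDK11 siRNA by 0.57 in KHOS and 0.57 in U-2OS, and with nonspecific siRNA it differed by -0.74 and -0.42. The limma estimates over both lines for CDK11 siRNA against untransfected cells were 0.57, 0.58 and 0.64 on 209210_s_at, 214212_x_at and 209209_s_at, and those for nonspecific siRNA against untransfected cells were -0.58, -0.33 and -0.01. The 3 probe sets thus differed in where the nonspecific siRNA arrays lay.

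ITGB1 and PTK2 showed the same order of arrays. The ITGB1 differences between CDK11 siRNA and nonspecific siRNA on 1553530_a_at, 1553678_a_at and 211945_s_at came to 0.55, 0.65 and 0.46 in KHOS, and in U-2OS to 0.44, 0.37 and 0.16. The CDK11 siRNA arrays of ITGB1 differed from those of untransfected cells by only 0.08 to 0.18 in KHOS and 0.09 to 0.20 in U-2OS. The PTK2 differences were 0.63 and 0.44 on 207821_s_at and 208820_at in KHOS and 0.65 and 0.36 in U-2OS, where the nonspecific siRNA array was the lowest of each line. On the third probe set of PTK2, 241453_at, they were -0.02 and 0.15. The PTK2 probe sets 207821_s_at and 208820_at did not pass with the level-following prior (adjusted p = 0.0675 and 0.0984).

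ITGA2 and ITGA5 were ordered differently, with the untransfected array the lowest of each line. For ITGA2 on 227314_at, CDK11 siRNA differed from nonspecific siRNA by 0.98 in KHOS and 0.40 in U-2OS, and from untransfected cells by 1.05 and 1.21. For ITGA5, the corresponding differences were 0.73 and 0.45, and 1.12 and 0.74. In limma neither gene passed (adjusted p of 0.283 for ITGA2 and 0.247 for ITGA5 against nonspecific siRNA, and 0.126 and 0.11 against untransfected cells). With the level-following prior, 4 members were higher with CDK11 siRNA than in untransfected cells, against 1.1% of all probe sets. These were ITGA2 on 227314_at and 205032_at (adjusted p = 0.0165 and 0.0425), ITGA5 (adjusted p = 0.0293) and FERMT2 on 209210_s_at (adjusted p = 0.0371).

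**Figure D4:**
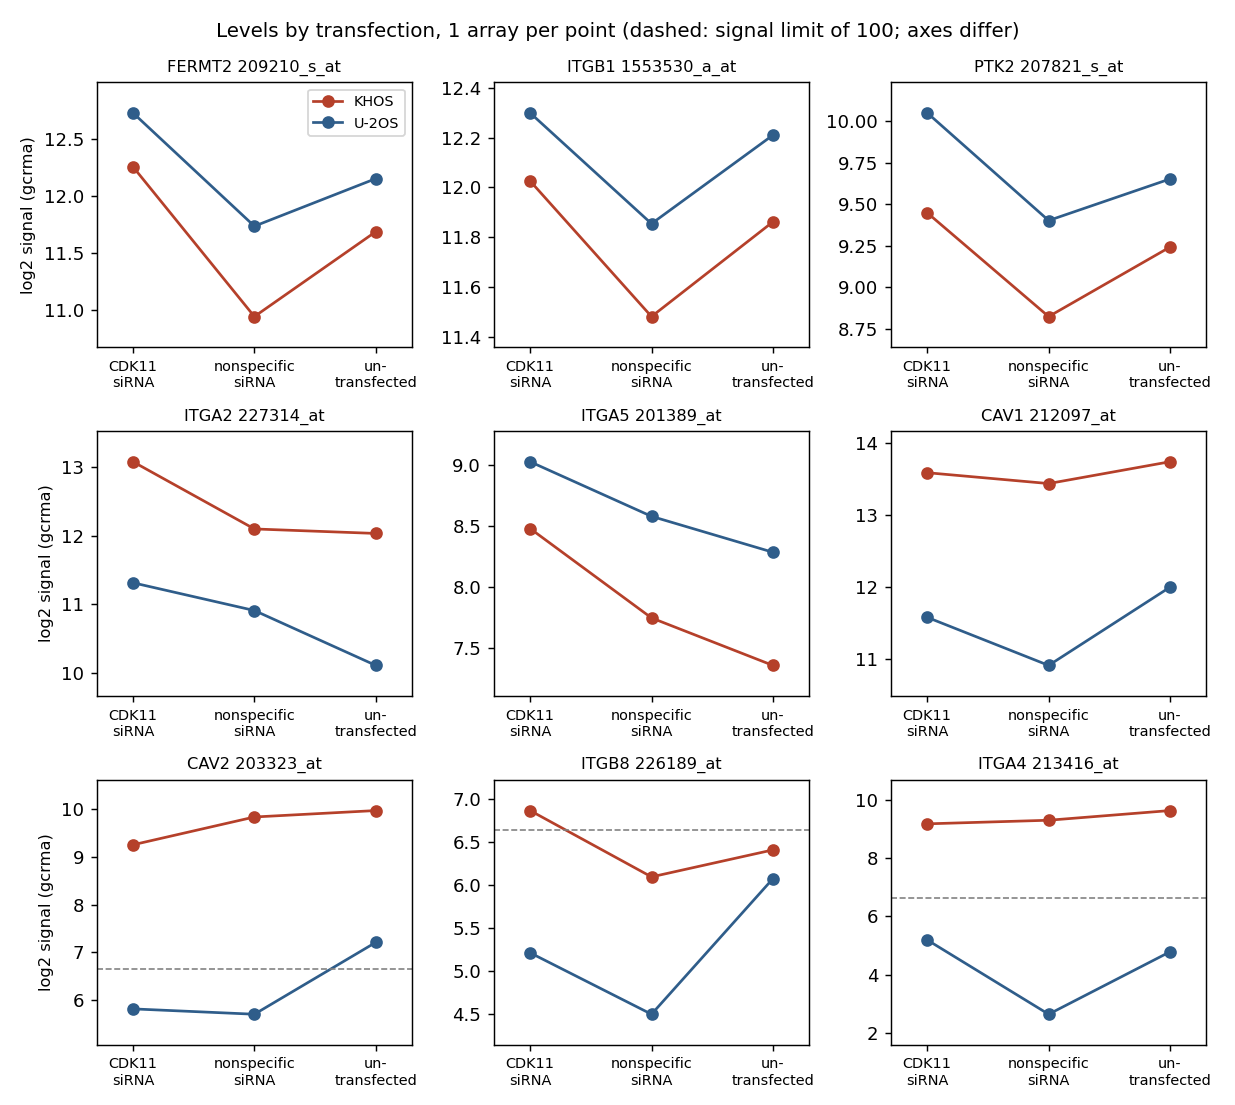
Log2 gcrma signal (y axis, a separate scale in each panel) by transfection (x axis) for 9 probe sets, 1 array per point, KHOS in red and U-2OS in blue. In both lines the nonspecific siRNA array is the lowest for FERMT2, ITGB1 and PTK2 and the untransfected array is the lowest for ITGA2 and ITGA5, whereas CAV2 and ITGA4 vary mainly in U-2OS.

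The promoters of these 4 genes (FERMT2, ITGB1, ITGA2 and ITGA5) are shown because their probe sets passed with the level-following prior, a choice made after their values were seen. They come from RefSeq, build GRCh38.p14, and cover 250 bases before to 50 bases after the annotated start, with 21 of the 24 genes matched. The capitals mark GC boxes (GGGCGG, on either strand, where neighbouring copies may share bases) and, in ITGA5, the AP-1 motif TGANTCA. FERMT2 lies at chr14:52951001-52951300 on the minus strand, ITGB1 at chr10:32958181-32958480 on the minus strand, ITGA2 at chr5:52989102-52989401 on the plus strand and ITGA5 at chr12:54419217-54419516 on the minus strand.
FERMT2: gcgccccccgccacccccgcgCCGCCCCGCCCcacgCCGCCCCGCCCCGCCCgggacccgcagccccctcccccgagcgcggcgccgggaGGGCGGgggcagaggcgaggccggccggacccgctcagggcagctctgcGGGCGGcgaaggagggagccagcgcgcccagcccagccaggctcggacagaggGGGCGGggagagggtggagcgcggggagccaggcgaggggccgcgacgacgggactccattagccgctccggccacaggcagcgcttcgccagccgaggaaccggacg
ITGB1: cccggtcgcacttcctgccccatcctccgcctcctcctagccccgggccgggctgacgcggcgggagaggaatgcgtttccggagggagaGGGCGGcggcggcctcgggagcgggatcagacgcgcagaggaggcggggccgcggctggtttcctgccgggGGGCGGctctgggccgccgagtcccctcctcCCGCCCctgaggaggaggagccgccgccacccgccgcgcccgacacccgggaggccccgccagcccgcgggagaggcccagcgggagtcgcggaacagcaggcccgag
ITGA2: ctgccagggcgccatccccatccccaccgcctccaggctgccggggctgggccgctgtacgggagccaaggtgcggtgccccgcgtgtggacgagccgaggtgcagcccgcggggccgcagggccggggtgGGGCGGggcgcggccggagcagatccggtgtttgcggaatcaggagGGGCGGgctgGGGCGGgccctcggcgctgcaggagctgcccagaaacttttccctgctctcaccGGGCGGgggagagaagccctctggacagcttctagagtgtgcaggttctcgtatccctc
ITGA5: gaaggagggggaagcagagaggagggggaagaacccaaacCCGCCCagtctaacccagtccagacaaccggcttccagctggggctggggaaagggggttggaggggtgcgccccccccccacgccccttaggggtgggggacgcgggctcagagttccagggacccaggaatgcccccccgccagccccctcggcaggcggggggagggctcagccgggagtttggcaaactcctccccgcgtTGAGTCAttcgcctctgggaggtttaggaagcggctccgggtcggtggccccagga
The FERMT2 window held 8 GC boxes and was 82% G and C, the ITGB1 window held 3, the ITGA2 window 4 and the ITGA5 window 1. GC boxes were found in 16 of the 21 member promoters and in 44.6% of 27305 promoters. The AP-1 motif was found in 2 of the 21, ITGA5 and ACTN4, and in 7.76% of all promoters. CCAAT was found in 4 of the 21 and in 35.7% of all, TATAAA in 1 (ITGA6) and in 12% of all, and the CArG box of SRF in 0 and in 1.29% of all. Such matches describe the letters of the window and not the binding of a factor.

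The members beyond 3 SD were all in U-2OS. On 213416_at, the CDK11 siRNA level of ITGA4 minus its nonspecific siRNA level came to -0.12 in KHOS and 2.55 in U-2OS. The nonspecific siRNA array also lay 2.14 log2 units below the untransfected array in U-2OS, so that CDK11 siRNA and untransfected cells differed by 0.41. All of these U-2OS levels were below the signal limit. Between CDK11 siRNA and nonspecific siRNA, ITGA4 on 243366_s_at differed by -0.85 in KHOS and 0.95 in U-2OS, in opposite directions, with its U-2OS levels again below the limit. On 205885_s_at it differed by 0.04 in KHOS and -0.04 in U-2OS. ITGB8 differed by 0.77 in KHOS and 0.71 in U-2OS between CDK11 siRNA and nonspecific siRNA, and by -0.31 and -1.57 between nonspecific siRNA and untransfected cells. Its CDK11 siRNA arrays differed from untransfected cells by 0.46 in KHOS and -0.86 in U-2OS. Its U-2OS levels, too, were below the limit on all 3 arrays, and in KHOS only the CDK11 siRNA array, by which it was kept, was above it.

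In the caveolins the U-2OS arrays of transfected cells lay below that of untransfected cells. Between CDK11 siRNA and untransfected cells, CAV2 on 203323_at differed by -0.72 in KHOS and -1.39 in U-2OS. Between nonspecific siRNA and untransfected cells it differed by -0.13 in KHOS and -1.51 in U-2OS. CAV1 on 212097_at differed by -0.15 in KHOS and -0.42 in U-2OS in the first of these comparisons, and by -0.30 in KHOS and -1.09 in U-2OS in the second. Between CDK11 siRNA and nonspecific siRNA, CAV1 differed by 0.15 in KHOS and 0.67 in U-2OS. None of these passed limma over both lines (smallest adjusted p of 0.21, for CAV2 on 203323_at in CDK11 siRNA against untransfected cells).

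Several members differed little between CDK11 siRNA and nonspecific siRNA. ILK differed by -0.07 in KHOS and -0.09 in U-2OS, VCL by 0.02 and -0.16, and ITGA1 on 226731_at by -0.21 and 0.01. The 3 ACTN1 probe sets differed by 0.08 to 0.29 in KHOS and 0.09 to 0.14 in U-2OS, and PXN by -0.02 and 0.06. TNS1 differed by -0.39 in KHOS, where all its levels were far below the limit, and by 0.48 in U-2OS. The probe sets of 11 of the 13 genes with several of them shared 1 sign in the limma estimate.

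Among the other genes of the pathway, 16 of 25 signalling genes were higher in both lines under CDK11 siRNA than under the nonspecific one, and 3 were lower in both. Over all genes, counted in the same way, 33.2% were higher in both lines and 31.0% lower in both, and each count that follows is to be read against these shares. The signalling genes higher in both lines included ARHGAP5, with the largest mean difference of that list, at 0.90 in KHOS and 0.56 in U-2OS. Next came PIK3R1, a regulatory subunit of PI 3-kinase, at 0.71 and 0.69, and GRB2, the adaptor that couples receptors to Ras, at 0.72 and 0.51. For each of these genes the nonspecific siRNA array was the lowest of its line. Of 21 ligands, 12 were higher in both lines and 3 were lower, of 27 adhesion proteins 10 and 4, of 21 actin and SRF target genes 7 and 5, and of 3 caveolar genes 1 and 1. None of these genes passed limma, and the lists are described by their counts alone.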

How the data were processed

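RNA of KHOS and U-2OS cells was hybridized to Affymetrix U133 Plus 2.0 arrays, 1 per line and transfection. The deposited log2 values were made by the authors with gcrma, which adjusts for background, normalizes between arrays and summarises each probe set, and precision is limited by the small number of arrays. Gene symbols came from the platform annotation. Of all probe sets 41097 had 1 symbol, 1801 several and 11777 none, and none with several was used for a member. Probe sets with a highest signal above 100 were kept, and all 16397 of them entered one fit with limma 3.58.1 (R 4.3.3), two-sided, with Benjamini-Hochberg adjustment at 0.05. Transfection was the block between lines and cell line the block between transfections, with 2 residual degrees of freedom. Within a line, log2 differences were turned into z-scores over all kept probe sets and called beyond 3, the threshold of the study's methods, without its present and absent calls. Bounds were taken with levels below the limit set to it. The fit was tested on simulated data with changes of known size. Between CDK11 siRNA and nonspecific siRNA it recovered 28% of changes of 1 log2 unit and 66% of changes of 2. Between the lines it recovered 38% and 80%. Each size of change was given to only 50 of 16397 probe sets, far fewer than limma called between the lines. The shares of 38% and 80% therefore do not describe the line comparison of these arrays. A member that did not pass may still have changed. Python 3.11.15, pandas 2.3.3, numpy 2.4.6 and matplotlib 3.10.9 were used for tables and plots.

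The members, the lists of other genes and the alternatives were chosen with earlier results of these data known. Values on every array were given for the 12 members with the largest line difference past limma, for members beyond 3 SD within a line for CDK11 siRNA against nonspecific siRNA or nonspecific siRNA against untransfected cells, and for the 3 highest and 3 lowest of each transfection comparison by brightest probe set. Of the other lists up to 4 genes by line difference and up to 3 by CDK11 siRNA response could be named. The levels of ITGB1 were added after its values were seen. Alternatives covered the filter, the normalization, 1 probe set per gene, the block, the variance prior, the scale and threshold of the z-score, and leaving out each transfection or line.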

Additional observations from a re-analysis of the deposited data

How the results depend on the processing

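No named value of a member changed direction, but the balance of all calls between the lines did, with 6486 probe sets higher and 5343 lower in KHOS as deposited, 5664 and 6238 on centred arrays, and 5763 and 6049 on quantile normalized ones. The alternatives of filter, 1 probe set per gene, variance prior and block leave each limma estimate as it was. There only the p-value could change, so a kept direction under them is no result. Of 453 comparisons of a named value with an alternative, 425 kept their side of the threshold, 21 fell short of it and 7 newly passed, and every call on the line difference that was lost belonged to ITGB1, ILK, ACTN1, ITGA5, ITGA6, ITGB8, PTK2 or FERMT2. Between the lines limma called 36 member probe sets of 11829 in all, 20 of 6362 with 1 probe set per gene, and 31 to 33 of 9836 to 10978 when one transfection was left out. Without the replicate block 30 of 10953 were called between lines, and still none between transfections. Centring the arrays on their medians moved the median KHOS minus U-2OS difference of all probe sets to -0.05, where it was 0.10 as deposited, and 20 members were then higher and 20 lower. With the variance prior that follows the level, 3 member probe sets of 211 in all passed for CDK11 siRNA against nonspecific siRNA, 4 of 574 for CDK11 siRNA against untransfected cells, and 5 of the whole table for nonspecific siRNA against untransfected cells. The calls within a line rested on the scale. For CDK11 siRNA against nonspecific siRNA in KHOS there were 4 members of 674 probe sets with median and MAD and 5 of 896 beyond 2 SD, compared with 0 of 227 beyond 3 SD. With a signal limit of 200 there was 1 member, for which the total is not given here. In U-2OS there were 4 of 910 and 4 of 915, compared with 1 of 306. For nonspecific siRNA against untransfected cells in KHOS there were 716 probe sets in all with median and MAD, and 1 member of 793 beyond 2 SD, compared with 0 of 248. In U-2OS there were 5 of 816 and 6 of 862, compared with 3 of 261. With alternatives chosen after seeing the data, 11 members were higher and 0 lower by over 0.25 in both lines, against 9.66% and 8.45% of all probe sets. On quantile normalized or centred arrays 2 members were lower in both lines instead of 1. The shares of all probe sets on those arrays are not given here. The median response of the members to CDK11 siRNA was 0.23 over both lines, 0.23 without U-2OS and 0.16 without KHOS. The cause of these shifts was not tested. The depth of the measurement is limited by signals near the limit of 100, where several U-2OS levels lay, and by 1 array per condition.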
